A study of Mus musculus with 6 samples.

Results

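The 10 genes described here act together when the liver builds very-low-density lipoprotein (VLDL) and moves it out of the endoplasmic reticulum (ER). Their transcripts were measured in livers targeted for loss of Vmp1. They were picked by name for their known roles: Apob, Mttp, Tm6sf2, Pla2g12b, Smlr1, Cideb, Sar1b, Mia2, Mia3 and Surf4. The choice was made with earlier results of these data known. All 10 of the 10 were found among the 55536 genes of the deposited table, and all 10 passed the filter on low values. VLDL is assembled in the hepatocyte ER on 1 molecule of apolipoprotein B, which receives lipid as it is made and further lipid afterwards. The finished particle is larger than ordinary secretory cargo, so it leaves the ER with the help of dedicated receptors and of adaptors that enlarge the COPII transport carrier. Failure of these steps leaves fat in the liver and little apolipoprotein B in plasma.

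The 6 libraries came from livers of C57BL/6 mice, 8 to 10 weeks old, and every animal carried floxed VMP1 alleles, controls included. Controls (3 libraries) received AAV8-TBG-null, a liver-infecting virus without a transgene, and the 3 libraries labelled H-VMP1 KO came from mice given AAV8-TBG-cre, both 2 weeks before sampling. TBG is a promoter active in hepatocytes, so Cre was expressed in hepatocytes and other liver cells kept the gene. The series title asks about lipoprotein secretion and steatohepatitis, and VMP1 is an ER membrane protein of autophagy and lipid handling.

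Values are given as TPM, an abundance per transcript length in which all libraries have equal totals. Depth is unknown, because TPM does not carry the number of reads. Fold changes are labelled knockout minus control on the log2(TPM + 1) scale with SE or 95% confidence interval, and adjusted p is limma's, after Benjamini-Hochberg adjustment over 12796 genes. With a pseudocount of 1, changes of genes near that level come out too small. Nothing in the labels says that the samples of a group are separate animals. The p-values therefore rest on sample-to-sample spread that may be technical.

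Vmp1 itself was not lower where it was targeted. It was at 70.7, 96.5 and 88.6 TPM in controls and at 157, 136 and 137 TPM in the other group, a fold change of 0.75 as deposited and of -0.18 under median-of-ratios scaling. A gene-level value also counts exons outside the floxed part, so it does not check the deletion. The libraries are therefore called labelled knockout, and each direction below rests on the labels. Hepatocyte markers were abundant in every library (10 markers, summed 54200 to 73100 TPM in controls and 36100 to 37700 in labelled knockout). Markers of other cells were higher as deposited, where 74.5% of all tested genes were: 10 of 10 macrophage markers (summed 137 to 234 against 1440 to 1890 TPM, controls first), 8 of 8 endothelial (50.9 to 55 against 145 to 179) and 8 of 8 stellate (46.3 to 49.6 against 261 to 300). The macrophage and stellate counts were the same with median-of-ratios and quantile scaling, and the endothelial count was then 5 and 6 of 8. Summed levels of the rarer types were also higher, for 6 bile duct markers (16.6 to 31.8 against 123 to 172 TPM), 6 neutrophil markers (2.09 to 3.71 against 28.7 to 60.2) and 7 lymphocyte markers (1.18 to 1.47 against 4.96 to 7.81). Of these, 4, 4 and 1 were tested, and 3, 3 and 1 of the tested were under 1 TPM in every control, as was 1 stellate marker. Such genes pass the filter only where they are high, so their calls carry no weight. The bile duct sum was mostly Spp1, at 14.3, 25.5 and 29.8 TPM in controls and 124, 164 and 116 TPM in labelled knockout. No other bile duct marker was above 5.56 TPM in any library. Ly6g, a neutrophil marker, was listed at 0 in all controls, and no marker was at 0 in every labelled knockout library. The part of cell composition in the results below was not tested, and in bulk tissue fewer hepatocytes and less RNA per hepatocyte cannot be told apart.

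Most genes moved up as deposited, so each member is read against that. Of the genes tested, 85.2% were called, 74.5% higher and 10.7% lower, with a median fold change of 0.77. Median-of-ratios scaling centres fold changes close to 0. It lowered fold changes by a median of 0.83 and called 71.8%, of which 35.1% of genes were higher and 36.6% lower. Quantile normalization shifted them by -0.79 and called 70.8%, 35.3% higher and 35.4% lower. Scaling on the 10 hepatocyte markers, added after the data were seen, raised them by 0.58 and called 93.2%, 87.5% higher and 5.65% lower. That last scale compares a gene with hepatocyte transcripts that themselves changed unequally, from -0.20 for Trf to -1.31 for Alb.

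Apob, Pla2g12b and Mia2 are shown with sequence, because the data include the enzymes or factors known to act at these sites. Apob mRNA carries a C that the deaminase APOBEC1 can change to U, which turns a glutamine codon into a stop and yields the short protein apoB48. The site is codon 2179 of the longest annotated Apob transcript, in exon 26 of 29 and within the coding sequence, at chr12:8008044-8008074 on the plus strand of GRCm38. The capital C is the edited base and the capital run after it is the mooring sequence that guides the enzyme.
Apob editing site: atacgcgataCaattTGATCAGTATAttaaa
The table gives expression only, so editing itself was not measured.

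Upstream sequences come from RefSeq on GRCm38.p6, where 9 of 10 members matched (11 start sites), and Tm6sf2 did not. Capitals mark matches to motifs of the hepatocyte factors HNF4 and HNF1, chosen after these sequences were read. Each sequence starts 250 bases before the RefSeq start and stops before any annotated UTR. They are chr12:7977427-7977647, plus strand, for Apob, chr10:59403435-59403659, plus strand, for Pla2g12b, and chr12:59095341-59095590, plus strand, for the first of the 3 Mia2 starts.
Apob: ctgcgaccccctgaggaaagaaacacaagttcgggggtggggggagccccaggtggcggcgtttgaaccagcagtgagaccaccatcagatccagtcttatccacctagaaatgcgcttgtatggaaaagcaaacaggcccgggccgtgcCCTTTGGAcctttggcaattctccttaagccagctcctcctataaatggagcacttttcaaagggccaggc
Pla2g12b: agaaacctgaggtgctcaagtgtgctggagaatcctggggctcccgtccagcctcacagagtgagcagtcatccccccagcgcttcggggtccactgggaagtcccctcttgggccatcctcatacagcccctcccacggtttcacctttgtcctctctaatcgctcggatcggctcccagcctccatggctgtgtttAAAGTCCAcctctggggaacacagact
Mia2: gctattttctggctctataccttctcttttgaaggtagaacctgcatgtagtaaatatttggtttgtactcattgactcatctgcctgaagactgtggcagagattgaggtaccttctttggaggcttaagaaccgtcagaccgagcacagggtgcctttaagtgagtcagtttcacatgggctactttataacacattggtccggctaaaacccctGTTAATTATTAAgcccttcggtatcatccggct
Both strands of the 250 upstream bases of 32851 RefSeq starts were searched. An HNF4-type core, AAAGTCCA, was in 1.01% of them and in Pla2g12b. A second HNF4-type core, TCCAAAGG, was in 1.21% and, on the opposite strand, in Apob. The longer palindromic HNF1 motif was in 0.0609% and in Mia2. The ER stress response element was in 0.113% and in 0 of the 11 member sequences. A match is a description of the letters, not a measured binding site.

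Of the 10 genes, 2 fell (Apob and Cideb), 3 rose (Pla2g12b, Surf4 and Tm6sf2) and 5 were not called (Mttp, Smlr1, Sar1b, Mia2 and Mia3), with the table as deposited. This is 5 of 10 called beside 85.2% over all genes, and the members' median fold change was -0.01 beside 0.77. The share of tested genes with a lower fold change was 68.2% for Pla2g12b, 50.2% for Surf4 and 38.6% for Tm6sf2. Tm6sf2 therefore rose by less than the median gene. That share was 5.02% for Apob, 8.06% for Cideb and 12.8% to 18.3% for the members not called. The groups did not overlap in 5 of 10 members, and in 86.8% of all tested genes. The split moved with the scaling. With median-of-ratios scaling 0 rose and 7 fell, where 71.8% of all genes were called (35.1% higher, 36.6% lower). With quantile normalization 2 rose and 7 fell, beside 70.8% (35.3% higher, 35.4% lower). With hepatocyte marker scaling 8 rose and 1 fell, beside 93.2% (87.5% higher, 5.65% lower).

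**Figure D1:**
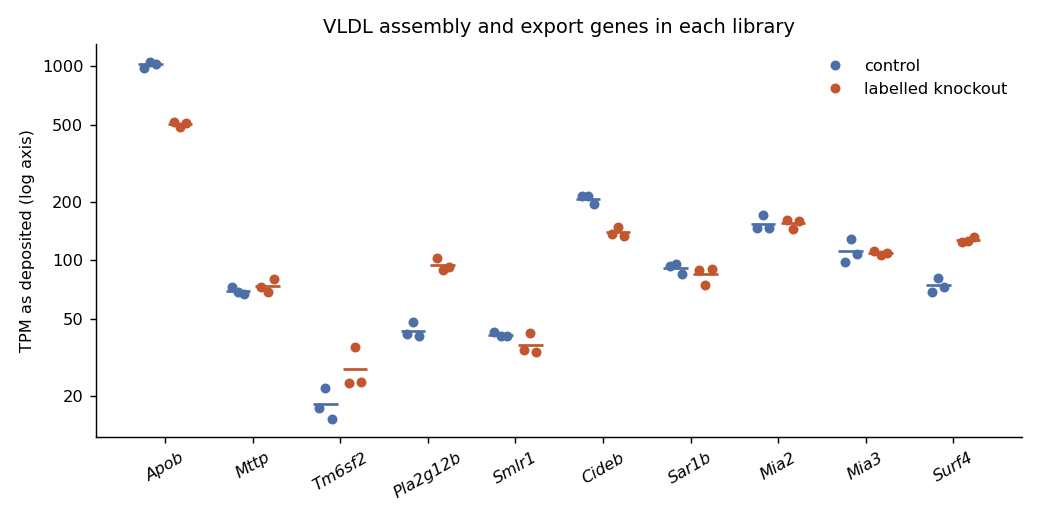
TPM of the 10 genes (log axis) in each of 3 control and 3 labelled knockout libraries, with horizontal lines at the group means. Apob sat between 981 and 1054 TPM in controls and between 488 and 518 in labelled knockout, while Mttp, Smlr1, Sar1b, Mia2 and Mia3 overlapped between groups.

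Apob (ENSMUSG00000020609, GRCm38 chromosome 12, 7977648 to 8016835, plus strand) encodes apolipoprotein B, the structural protein of the particle. It was at 981, 1054 and 1032 TPM in controls and at 518, 488 and 509.5 TPM in labelled knockout. Every labelled knockout library lay below every control. The group means stood at a ratio of 0.494, and the fold change was -1.01 ± 0.10 (95% interval -1.25 to -0.78, adjusted p = 1.1e-05, limma). Apob was lower under every scaling run, from -1.96 with median-of-ratios to -0.35 with hepatocyte marker scaling, where adjusted p was 0.014. As deposited, 5.02% of tested genes had a lower fold change than Apob. The 10 hepatocyte markers ranged from -1.31 to -0.20 as deposited and from -0.65 to 0.46 with hepatocyte marker scaling. Apob lay within their range on both scales.

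Mttp (chromosome 3, 138089854 to 138144968, minus strand) encodes the large subunit of the transfer protein that puts triglyceride onto nascent apolipoprotein B. Its values were 72.9, 68.7 and 67.3 TPM in controls and 72.5, 68.8 and 80.1 TPM in labelled knockout, so the groups overlapped. The fold change of Mttp was 0.08, with a 95% interval of -0.14 to 0.30 (adjusted p = 0.44, limma). It turned to -0.85 with median-of-ratios scaling, -0.55 with quantile normalization and 0.73 with hepatocyte marker scaling, all called. Annotated exons of Mttp overlap those of Trmt10a, whose mean was 2.33 TPM in controls and 7.74 in labelled knockout.

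P4hb, protein disulfide isomerase, is the small subunit of the same transfer complex as well as an abundant ER folding enzyme. It was at 956, 1034 and 1056 TPM in controls and 1184, 1254 and 1265 TPM in labelled knockout. The groups did not overlap, and the fold change of 0.28 (adjusted p = 0.036, limma) lost its call when any of 5 of the 6 libraries was left out, and its sign changed (-0.66) with median-of-ratios scaling. It was 0.08 with quantile normalization, 0.02 rescaled without Mup genes and 0.09 without the most abundant genes, with no call in any of these. Mttp stood at 0.0762, 0.0664 and 0.0637 of P4hb in controls and at 0.0612, 0.0549 and 0.0633 in labelled knockout.

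Tm6sf2 (chromosome 8, 70072924 to 70080066, plus strand) encodes an ER membrane protein needed to add bulk lipid to VLDL. It was at 17.2, 21.8 and 15.1 TPM in controls and at 23.3, 35.6 and 23.6 TPM in labelled knockout. Labelled knockout replicate 2 was the highest, and the groups were separate by a narrow margin. The fold change of Tm6sf2 was 0.57 ± 0.19 (adjusted p = 0.021, limma) as deposited, and -0.33 with median-of-ratios and -0.19 with quantile scaling. Leaving out control replicate 1 or control replicate 3 ended the call (limma adjusted p of 0.061 and 0.076), and without labelled knockout replicate 2 it was smaller, 0.37. It was also lost with no filter on low genes (adjusted p = 0.055), where more genes enter the adjustment.

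Pla2g12b (chromosome 10, 59403660 to 59421976, plus strand) encodes a phospholipase-like protein without catalytic activity that helps apolipoprotein B particles take up lipid in the ER. It was at 41.5, 48 and 40.5 TPM in controls and at 103, 89.2 and 91.8 TPM in labelled knockout. The groups were far apart, at a ratio of means of 2.18. Its fold change was 1.11 ± 0.11 (adjusted p = 6.7e-06, limma), and it stayed above 0 under every scaling run, from 0.18 with median-of-ratios (adjusted p = 0.052) to 1.76 with hepatocyte marker scaling. Its catalytic relative Pla2g12a rose by 0.58 as deposited but was at -0.31 with median-of-ratios and -0.20 with quantile scaling.

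Smlr1 (chromosome 10, 25527943 to 25536267, minus strand) encodes a small membrane protein that helps VLDL move from the ER to the Golgi. It was at 42.6, 40.7 and 40.4 TPM in controls and at 34.4, 41.9 and 33.6 TPM in labelled knockout. Labelled knockout replicates 1 and 3 lay below the controls, and replicate 2 lay among them. The fold change was -0.17 (95% interval -0.41 to 0.07, adjusted p = 0.15, limma), and without labelled knockout replicate 2 it was -0.27 and called (adjusted p = 0.03). It was -1.09 with median-of-ratios scaling and 0.47 with hepatocyte marker scaling.

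Cideb (chromosome 14, 55754050 to 55758458, minus strand) belongs to a family that fuses and feeds lipid droplets, and it supports VLDL lipidation in hepatocytes. It was at 214, 214 and 194 TPM in controls and at 137, 149 and 133 TPM in labelled knockout. All labelled knockout values were below all controls. Its fold change was -0.57 ± 0.10 (adjusted p = 4.3e-04, limma), lower under every scaling run except hepatocyte marker scaling, where it was 0.09 and not called. Exons of Cideb overlap those of Nop9, which was low (6.68 and 13.8 TPM on average, controls first).

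Cidec, the fat-storing relative of Cideb, was at 2.77, 1.63 and 0.49 TPM in controls and at 13.9, 6.44 and 14.3 TPM in labelled knockout. Cidec rose by 2.28 ± 0.45 (adjusted p = 0.004, limma), and the third relative, Cidea, stayed under the filter. The ratio of Cideb to Cidec went from 77.2, 131 and 395 in controls to 9.84, 23.1 and 9.34, and rests on low Cidec values in controls.

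Among the export genes, Surf4 was called as deposited and Sar1b, Mia2 and Mia3 were not. Sar1b (chromosome 11, 51763687 to 51791925, plus strand) encodes the GTPase that starts COPII coat assembly and whose loss in people blocks release of apolipoprotein B particles. It was at 93.7, 95.5 and 84.6 TPM in controls and at 89.2, 74.5 and 89.5 TPM in labelled knockout. The groups overlapped, with a fold change of -0.11 (95% interval -0.36 to 0.13, adjusted p = 0.34, limma), which was -1.05 with median-of-ratios scaling and 0.54 with hepatocyte marker scaling.

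Sar1a encodes the sister GTPase and was at 37.4, 39.9 and 37 TPM in controls and at 79.2, 74.1 and 75.9 TPM in labelled knockout. It rose by 0.99 ± 0.09 (adjusted p = 4.7e-06, limma), and by 0.06 without a call under median-of-ratios scaling. The ratio of Sar1b to Sar1a inside a library needs no scaling. It was 2.51, 2.39 and 2.29 in controls and 1.13, 1.01 and 1.18 in labelled knockout, so the pair went from unequal to nearly equal abundance. Of all tested genes, 13.8% had a lower fold change than Sar1b and 62.0% a lower one than Sar1a, as deposited.

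Mia2 and Mia3 encode cTAGE5/TALI and TANGO1, partner ER-exit-site proteins that help COPII carriers accept large cargo. Mia2 (chromosome 12, 59095799 to 59191583, plus strand) was at 147, 170.3 and 147 TPM in controls and at 161, 145 and 160 TPM in labelled knockout. Mia3 (chromosome 1, 183326725 to 183369553, minus strand) was at 97.5, 128 and 108 TPM in controls and at 111, 106 and 109 TPM in labelled knockout. Both overlapped between groups.

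The fold change of Mia2 was 0.01 (95% interval -0.23 to 0.24) and that of Mia3 was -0.02 (-0.28 to 0.23), with adjusted p of 0.94 and 0.85 from limma. With median-of-ratios scaling they were -0.93 and -0.96, and with hepatocyte marker scaling 0.67 and 0.63. The ratio of Mia3 to Mia2 was 0.665, 0.751 and 0.738 in controls and 0.692, 0.73 and 0.681 in labelled knockout, and its groups overlapped (two-sided exact permutation p = 0.7). Mia2 has 23 annotated transcripts, and a gene-level value does not say which were used.

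Surf4 (chromosome 2, 26920040 to 26933928, minus strand) encodes the ER receptor that carries apolipoprotein B particles, among other secreted cargo, into COPII carriers. It was at 68.7, 80.4 and 73.1 TPM in controls and at 124, 125 and 132 TPM in labelled knockout. The groups were well separated. The fold change of Surf4 was 0.77 ± 0.10 (adjusted p = 4.4e-05, limma), the same as the median of all genes, and -0.16 (adjusted p = 0.11) with median-of-ratios scaling. Exons of Surf4 overlap those of Surf2, which averaged 18.4 TPM in controls and 29.7 in labelled knockout, and the strand setting of the libraries is not given in the sources used here.

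**Figure D2:**
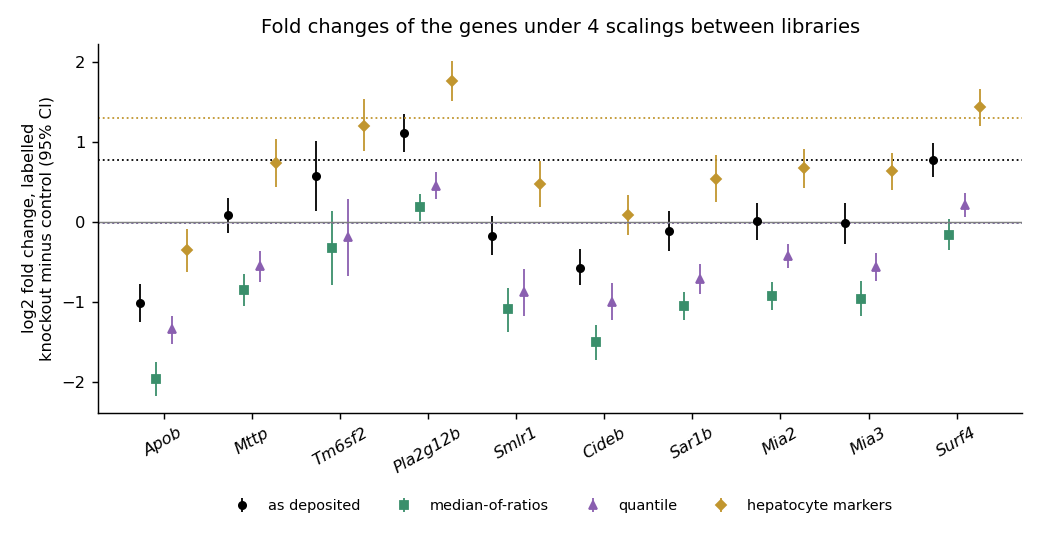
Log2 fold change with 95% confidence interval for each gene, with TPM as deposited and under 3 other scalings between libraries; dotted lines mark the median of all tested genes on each scale (0.77, -0.01, -0.01 and 1.30). Apob was below 0 and Pla2g12b above 0 on all 4 scales, whereas every other member changed sign between scales.

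Ratios between genes of the same library do not depend on any scaling, and 14 were compared. Apob was lower relative to each of the 9 other members, with no overlap between groups in 9 of 9. The ratio of Apob to Mttp was 13.5, 15.3 and 15.3 in controls and 7.14, 7.1 and 6.36 in labelled knockout, a log2 difference of -1.10 ± 0.08 (SE, n = 3 per group, two-sided exact permutation p = 0.1). The log2 difference was largest against Pla2g12b, -2.15 ± 0.08, where the ratio went from 23.7, 22 and 25.5 to 5.03, 5.47 and 5.55. It was smallest against Cideb, -0.45 ± 0.09, where 4.59, 4.93 and 5.33 in controls became 3.79, 3.29 and 3.82.

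Over all 14 ratios 13 did not overlap, each with exact permutation p = 0.1, the smallest that 3 against 3 can give, and 0.108 after Benjamini-Hochberg adjustment over the 14. No ratio could therefore pass 0.05. The 9 ratios share Apob and are not independent. Apob was lower in this way, with no overlap, against 92.5% of all other tested genes. No such share was worked out for the ratios without Apob, so their lack of overlap has no background beside it. Mttp over P4hb was apart only narrowly, with 0.0637 in control replicate 3 and 0.0633 in labelled knockout replicate 3.

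**Figure D3:**
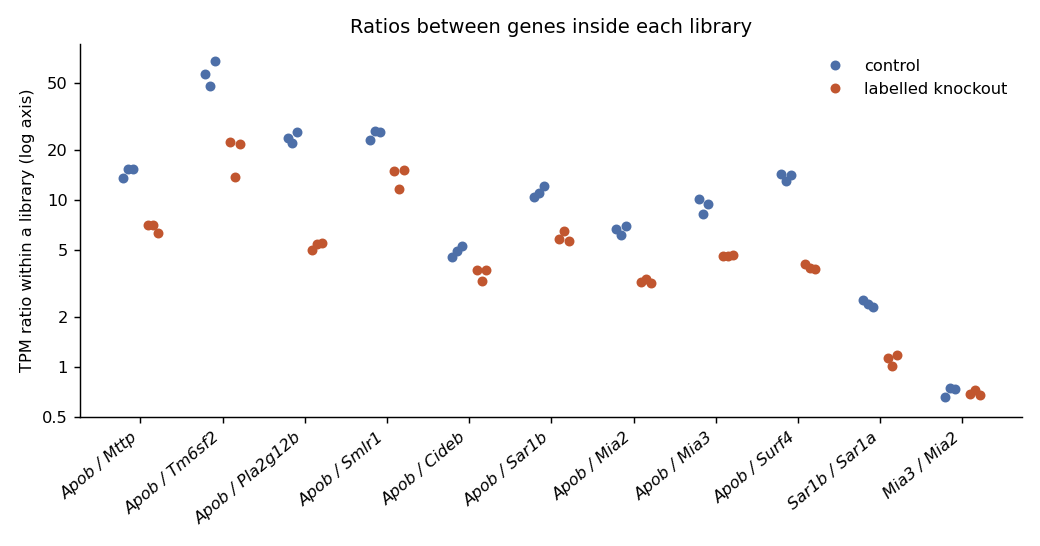
TPM ratios within each library (log axis), for Apob over each other member, Sar1b over Sar1a and Mia3 over Mia2; each point is 1 library. Labelled knockout points lie below all control points in every pair except Mia3 over Mia2, where they overlap.

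The order of the 10 levels changed accordingly. In controls Apob was highest (1022 ± 37.6 TPM, SD, n = 3), followed by Cideb, Mia2, Mia3, Sar1b, Surf4, Mttp, Pla2g12b, Smlr1 and Tm6sf2 (18 ± 3.44). Neighbours in that order overlapped only for Surf4 with Mttp and Pla2g12b with Smlr1. In labelled knockout the order was Apob (505 ± 15.2 TPM), Mia2, Cideb, Surf4, Mia3, Pla2g12b, Sar1b, Mttp, Smlr1 and Tm6sf2 (27.5 ± 7.05). There Mia2 with Cideb, Pla2g12b with Sar1b, Sar1b with Mttp and Smlr1 with Tm6sf2 overlapped. Apob made up 54.9 to 57.3% of the members' summed TPM in controls and 36.9 to 37.7% in labelled knockout.

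The genes whose profile over the 6 libraries lay closest to Apob, among 8000 searched, were Sfxn5, Naprt, Zcchc24, Pcmtd1 and Cyp2d10. Their root mean square differences from Apob were 0.047 to 0.071 log2 units. Among the closest to Mttp were Pitpnm2, Plcg1, Polr2b and Cables2, at 0.036 to 0.049. These distances describe 6 libraries and carry no test.

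Other apolipoproteins of VLDL were mostly lower as deposited, and so were hepatocyte markers. Of 8 apolipoproteins tested, 6 fell and 1 rose (median -0.64), beside 10.7% lower and 74.5% higher over all genes. Of the 10 hepatocyte markers, 6 fell and 0 rose (median -0.47). With median-of-ratios scaling 6 apolipoproteins fell and 1 rose, and with quantile normalization 3 and 1, where 36.6% and 35.4% of all genes fell. With hepatocyte marker scaling 2 apolipoproteins fell and 1 rose (median 0.02), beside 5.65% and 87.5% of all genes. Apoc1, an inhibitor of lipoprotein uptake, went from 10510 ± 854 to 4908 ± 1250 TPM (fold change -1.12), and Apoa1, the main protein of HDL, from 10820 ± 2010 to 5446 ± 430 TPM (-0.98). Apoa5, an activator of plasma triglyceride lipolysis, had a fold change of -0.78. With quantile normalization Apoc1 (-0.40) and Apoa1 (-0.11) were not called, and with hepatocyte marker scaling Apoa5 (-0.12) was not. Apoa4, which promotes the growth of nascent particles, rose from 64.9 ± 12 to 250.5 ± 67.3 TPM (1.92 ± 0.21, adjusted p = 3.8e-05, limma).

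Genes that edit Apob mRNA or dispose of apolipoprotein B protein were next. Of 11 tested, 8 rose and 0 fell as deposited (median 0.40), beside 74.5% higher and a median of 0.77 over all genes. With median-of-ratios scaling 3 rose and 6 fell, beside 35.1% and 36.6% of all genes. Quantile normalization gave 4 and 4, beside 35.3% and 35.4%, and hepatocyte marker scaling 11 and 0, beside 87.5% and 5.65%. Apobec1, the deaminase of the site printed above, was at 12.4, 10.8 and 9.72 TPM in controls and at 58.5, 37.8 and 45.1 TPM in labelled knockout. Its fold change was 1.99 ± 0.16 (adjusted p = 3.0e-06, limma), and it rose under every scaling run. Macrophages, whose markers rose in the same libraries, also express Apobec1, and their part in this value was not tested.

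A1cf, the RNA-binding partner of APOBEC1, rose by 0.35 as deposited (adjusted p = 0.032, limma), turned to -0.55 with median-of-ratios and -0.41 with quantile scaling, and lost its call when any of 4 of the 6 libraries was left out. Its groups overlapped. Syncrip, another RNA-binding protein of the editing complex, rose by 1.13, and Derl1, an ER degradation channel component, by 1.11. The call for Derl1 was lost with median-of-ratios scaling (0.19).

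The genes that supply lipid to the particle contained the steepest decreases of the pathway. Of 13 tested, 5 fell and 4 rose (median -0.30), beside 10.7% lower and 74.5% higher over all genes (median 0.77). With median-of-ratios scaling 9 fell and 0 rose, and with quantile 8 and 0, where 36.6% and 35.4% of all genes fell. With hepatocyte marker scaling 4 fell and 7 rose, beside 5.65% and 87.5% of all genes. The ER carboxylesterases Ces3a and Ces3b, linked to triglyceride mobilization, went from 1356 ± 141 to 18.5 ± 11.3 TPM and from 251 ± 21.9 to 4.12 ± 2.62 TPM. Their fold changes were -6.27 ± 0.41 and -5.74 ± 0.35. Ces1d, the triacylglycerol hydrolase of the ER, changed by -3.74 and Aadac, a related ER esterase, by -1.90. These 4 genes were lower under every scaling run. Carboxylesterase genes are similar in sequence, so reads may be divided uncertainly among them.

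Of 15 tested genes of the COPII coat and its exit sites, 11 rose and 2 fell as deposited (median 0.42), a share higher that is near the 74.5% of all genes, with a median below their 0.77. The counts were 2 and 12 under median-of-ratios, 3 and 8 under quantile and 13 and 0 under hepatocyte marker scaling. Over all genes 35.1% rose and 36.6% fell under the first of these, 35.3% and 35.4% under the second. Under hepatocyte marker scaling 87.5% of all genes rose and 5.65% fell. Sec24b, a cargo-binding coat subunit, went from 11.2 ± 0.967 to 29 ± 1.97 TPM (fold change 1.30), and Sec13, of the outer coat, from 38.4 ± 1.31 to 85.3 ± 3.66 TPM (1.13). Sec16b, an exit-site scaffold linked to lipoprotein export, fell from 18.5 ± 2.1 to 11.6 ± 1.01 TPM (-0.62 ± 0.12, adjusted p = 6.4e-04, limma) and was lower or level under every scaling, with -0.00 on the hepatocyte marker scale.

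Of 10 tested general cargo receptors of the ER, 8 rose and 0 fell as deposited (median 0.52), again near the 74.5% of all genes and below their median of 0.77. With median-of-ratios scaling 2 rose and 7 fell, beside 35.1% and 36.6% of all genes. With quantile normalization 2 rose and 4 fell, beside 35.3% and 35.4%, and with hepatocyte marker scaling 10 and 0, beside 87.5% and 5.65%. Cnih4 rose by 1.38 and Tmed10, a p24 family receptor, by 1.25. Ergic1 and Ergic3, proteins that cycle between ER and Golgi, rose by 0.85 and 0.62 as deposited, but were at -0.08 and -0.31 under median-of-ratios scaling.

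**Figure D4:**
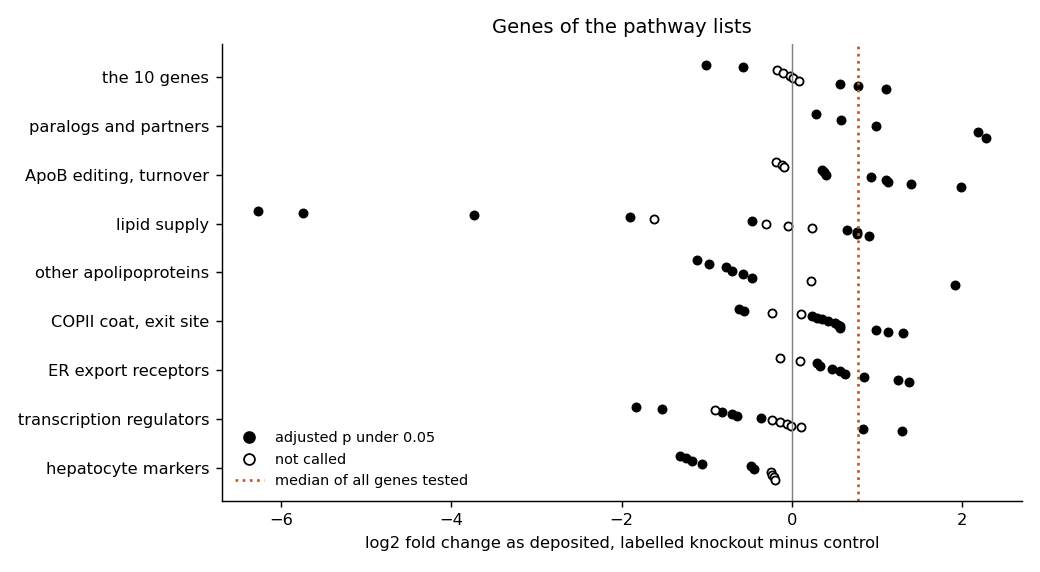
Log2 fold change (TPM as deposited) of each tested gene in the pathway lists and the hepatocyte markers; filled points passed an adjusted p under 0.05 and the dotted line is the median of all genes tested, 0.77. Apolipoproteins and regulators lie mostly below 0, and coat and receptor genes mostly between 0 and the dotted line.

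Of 14 transcription regulators known for the VLDL genes or for liver lipid metabolism, 6 fell and 2 rose (median -0.30). Over all genes 10.7% fell and 74.5% rose (median 0.77). With median-of-ratios and with quantile scaling 12 fell and 1 rose, where 36.6% and 35.4% of all genes fell. With hepatocyte marker scaling 2 fell and 6 rose, beside 5.65% and 87.5% of all genes. Hnf4a, whose motif type is marked in the Apob and Pla2g12b sequences, was at 132, 152 and 128 TPM in controls and at 118, 121 and 133 TPM in labelled knockout. Its groups overlapped, with a fold change of -0.14 (95% interval -0.38 to 0.09, adjusted p = 0.22, limma). Hnf4a was called lower under 4 other scalings, at -1.08 with median-of-ratios, -0.63 with quantile, -0.40 without Mup genes and -0.34 without the most abundant genes, and higher, at 0.51, with hepatocyte marker scaling. The members with those motifs had fold changes of -1.01 (Apob) and 1.11 (Pla2g12b) as deposited. With median-of-ratios scaling they were -1.96 and 0.18, the latter not called. A part of Hnf4a in either was not tested.

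Foxo1, an insulin-restrained activator of Mttp, was at 3.51, 7.16 and 6.67 TPM in controls and at 5.01, 5.07 and 5.89 TPM in labelled knockout, with a fold change of -0.06 (adjusted p = 0.82, limma). It was called lower with median-of-ratios (-0.85) and quantile scaling (-0.87) and without control replicate 1 (-0.33), and higher with hepatocyte marker scaling (0.50). Creb3l3, an ER-bound factor that controls apolipoprotein genes, fell by 0.70 and was -0.05 with hepatocyte marker scaling. The fatty acid receptor Ppara had a fold change of -1.83 and the bile acid receptor Nr1h4 one of -1.53, both lower under every scaling run. Foxa2 rose by 1.29, and Xbp1, the unfolded protein response factor, rose by 0.84 as deposited but was -0.10 with median-of-ratios scaling.

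Tmem41b, a scramblase related to VMP1, was at 10.4, 13 and 10.3 TPM in controls and at 16.1, 15.7 and 14.3 TPM in labelled knockout. It rose by 0.43 as deposited but was at -0.45 with median-of-ratios and -0.37 with quantile scaling. Among the relatives and partners of members, all 5 tested of 7 rose as deposited, beside 74.5% of all genes. They include P4hb, the partner of Mttp, whose call was easily lost as given above. With median-of-ratios scaling 2 rose and 2 fell, beside 35.1% and 36.6% of all genes. With quantile normalization 3 rose and 0 fell, beside 35.3% and 35.4%. Tm6sf1, the relative of Tm6sf2, was under 1 TPM in every control and rose by 2.19, a gene that could pass the filter only through the labelled knockout libraries.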

How the data were processed

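Per the labels' protocols, Trizol was used on snap-frozen liver and the RNA went into standard Illumina libraries (6 in all). The authors deposited 1 table of TPM values, 1 column per library, each summing to the same total. STAR 2.6.1c, RSEM and edgeR are tools listed, without roles, in the submitters' processing notes, and the build listed is mm10. TPM is length-corrected and relative, so a gene's value depends on what abundant genes take of the total; no read counts are kept and no count model was used.

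The 12796 genes that reached 1 TPM in 3 or more libraries were fitted as log2(TPM + 1) with limma 3.58.1 in R 4.3.3, with intensity trend, robust variances, group as the only term, and Benjamini-Hochberg adjustment at 0.05. Ratios of genes within a library were tested by exact permutation (two-sided) in scipy 1.17.1. The limma fit was tried on simulated data in which few genes changed, evenly up and down. These libraries differ in that most genes were called, so the simulation says nothing about the choice of scaling. Positions are from GENCODE M21 (GRCm38, the assembly called mm10).

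The members and lists were chosen with earlier results of these data known. Named genes are the 10 members, up to 4 called genes with the largest change per pathway list, 10 genes named whatever their result, and the 5 nearest profiles of Apob and Mttp; some of these genes are not reported here. Surf2, Nop9, Trmt10a, Ly6g, Trf, Cidea and Spp1 were named after their values were seen. Alternatives changed the scaling, pseudocount, filter, variance model and replicate block, and left out each library. Hepatocyte marker scaling was added after seeing the data.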

Additional observations from a re-analysis of the deposited data

How the results depend on the processing

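Of 384 alternative values for the 10 genes, the counts and the ratios, 326 were classed as the same as the main result. For a fold change, the same meant an unchanged direction and side of the threshold. For a count it meant staying within a set fold range, and for a ratio an unchanged sign only, with no threshold. Pseudocounts of 0.1 and 0.5, a filter of 5 TPM, a plain variance model and the replicate block changed no member's direction or call, and no filter changed only the Tm6sf2 call (0.57, adjusted p = 0.055). Replicate numbers did not pair the samples (correlations of deviations -0.12 to 0.076, and 1 of 3 control libraries correlated best with its own number). With the block, genes called higher numbered 9427 and lower 1333, and P4hb (0.28) lost its call (adjusted p = 0.073, limma).

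Scaling moved most values. With median-of-ratios scaling Mttp was -0.85, Tm6sf2 -0.33, Surf4 -0.16, Pla2g12b 0.18, Mia2 -0.93, Mia3 -0.96, Sar1b -1.05 and Smlr1 -1.09. With quantile normalization Mttp was -0.55, Tm6sf2 -0.19, Mia2 -0.42, Mia3 -0.56, Sar1b -0.71 and Smlr1 -0.88. Rescaled without Mup genes, Mttp was -0.18, Tm6sf2 0.32, Mia2 -0.25, Mia3 -0.28, Sar1b -0.37 and Smlr1 -0.43. Rescaled without mitochondrial and the 20 most abundant genes, Mttp was -0.11, Tm6sf2 0.39, Mia2 -0.19, Sar1b -0.31 and Smlr1 -0.37. With hepatocyte marker scaling Cideb was 0.09, Mttp 0.73, Mia2 0.67, Mia3 0.63, Sar1b 0.54 and Smlr1 0.47.

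Members called higher and lower numbered 3 and 2 as deposited, 0 and 7 with median-of-ratios, 2 and 7 with quantile, 2 and 6 without Mup genes, 2 and 4 without mitochondrial and abundant genes, and 8 and 1 with hepatocyte marker scaling. Over all 12796 genes 4496 were higher and 4689 lower with median-of-ratios, 4520 and 4534 with quantile, and 11201 and 723 with hepatocyte marker scaling. The counts were 8413 and 1879 without Mup genes, and 8733 and 1729 without mitochondrial and abundant genes. Among 75 tested pathway genes, 38 were higher and 19 lower as deposited, and 11 and 54 with median-of-ratios. They were 13 and 39 with quantile, and 52 and 8 with hepatocyte marker scaling.

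Leaving out 1 library at a time gave fold changes of -1.04 to -0.99 for Apob, -0.61 to -0.53 for Cideb, 1.05 to 1.19 for Pla2g12b, 0.72 to 0.83 for Surf4, 0.37 to 0.71 for Tm6sf2, 0.02 to 0.13 for Mttp, -0.17 to -0.03 for Sar1b, -0.27 to -0.12 for Smlr1, -0.03 to 0.08 for Mia2 and -0.11 to 0.08 for Mia3. The ratio of Mia3 to Mia2 differed by -0.09 to 0.0 in log2, 0.0 without control replicate 2. Leaving out a library lost the Tm6sf2 call and gained the Smlr1 call as given above. The ratios kept their sign in 111 of 112 alternatives.

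Among other named genes, values that changed sign with median-of-ratios scaling were -0.55 for A1cf, -0.81 for Cables2, -0.08 for Ergic1, -0.31 for Ergic3, -0.66 for P4hb, -0.72 for Pitpnm2, -0.31 for Pla2g12a, -0.85 for Plcg1, -0.78 for Polr2b, -0.45 for Tmem41b, -0.18 for Vmp1 and -0.10 for Xbp1. With quantile normalization they were -0.41 for A1cf, -0.75 for Cables2, -0.66 for Pitpnm2, -0.20 for Pla2g12a, -0.74 for Plcg1, -0.71 for Polr2b and -0.37 for Tmem41b. Without Mup genes Cables2 was -0.19, Pitpnm2 -0.11, Plcg1 -0.21 and Polr2b -0.16, and without mitochondrial and abundant genes they were -0.14, -0.05, -0.15 and -0.10. With hepatocyte marker scaling Foxo1 was 0.50 and Hnf4a 0.51. With 1 library left out Foxo1 ranged from -0.33 to 0.10, Cables2 from -0.04 to 0.13 and Plcg1 from -0.02 to 0.10. The cause of these changes was not tested, and the unknown depth limits what can be said of genes near 1 TPM.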
